A study of Citrus sinensis and Citrus x aurantiifolia and Citrus x latifolia with 53 samples.

Results

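The comparison described here is between root libraries of Persian lime trees taken after 9 days without irrigation, 4 on a tetraploid rootstock (PL4x WD) against 3 on a diploid rootstock (PL2x WD). The 7 libraries are those with these labels, out of 53 libraries of the series and 27 of roots. The rootstock was Swingle citrumelo 4475, whose labels name Citrus sinensis and Poncirus trifoliata as parents, in a diploid form and as the tetraploid homologous to it. Both carried the same triploid scion, Persian lime (Citrus latifolia), so the roots of both groups hold rootstock tissue and differ by the label only in ploidy. The trees had grown for 2 years in 40 L pots in a greenhouse, and each library came from a tree of its own. Irrigated trees of the same grafts gave 3 libraries each (PL4x Ctrl and PL2x Ctrl), and the diploid Mexican lime (ML, Citrus aurantiifolia) on the same rootstocks gave ML4x WD (4 libraries), ML2x WD (4), ML4x Ctrl (3) and ML2x Ctrl (3). The design named a 4th PL2x WD tree, which has no root library among the 53 of the series. The labels do not say how many seed sources or clones stood behind each rootstock form.

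Tetraploid citrus seedlings arise by genome duplication in the nucellar tissue of the seed, so that a tetraploid rootstock carries the alleles of its diploid parent line in more copies. Such rootstocks are known for thicker roots and slower growth, and have been studied for tolerance of drought and salt. Roots that dry out induce genes of abscisic acid signalling and of protection against dehydration, and lower many genes of growth and of water and nutrient uptake. The study asked whether a tetraploid rootstock changes how a grafted lime copes with lack of water.

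The values were read counts per gene, and a level below is CPM, a gene's counts divided by the library total in units of 1e6, with the total scaled by TMM. CPM is relative to the library, so fewer cells of a type and less RNA per cell cannot be told apart, in particular between a tetraploid and a diploid root. The PL4x WD libraries held 18097700 to 27926000 counts and the PL2x WD libraries 16971100 to 22706900, and 16848 genes had at least 10 counts in every one of them. The files do not pair the gene identifiers with names, and 0 of 24533 matched the sweet orange gene table at hand. So no gene product, pathway or cell type marker is given, no sequence is shown, and the genes are followed by identifier and by groups defined on other libraries. As a check of the tissue, 498 genes enriched in ML control leaves took 0.143% to 0.271% of the counts in PL4x WD roots and 0.124% to 0.144% in PL2x WD roots, against 6.44% to 32.7% in the 26 leaf libraries. The 1148 genes enriched in ML control roots took 5.01% to 7.21% in PL4x WD and 5.62% to 8.23% in PL2x WD, against 0.0653% to 1.39% in leaves.

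The rootstock labels were checked with genes chosen on the other 20 root libraries. In those, 5 genes were higher in each of 10 tetraploid libraries than in each of 10 diploid ones and 1 gene was lower, with a mean of at least 1 CPM on the higher side. Of the 5 genes, 4 separated the 7 libraries in the same way, where 2.62% of all genes tested did. The gene lower on the tetraploid did not, where 4.87% of all genes tested did in that direction. Ciclev10013298m.g stood at 1.55, 1.49, 1.83 and 2.27 CPM in PL4x WD roots, against 0, 0 and 0.241 CPM in PL2x WD roots. Its log2 fold change was 4.51 ± 0.94 (SE), which missed the threshold after adjustment (edgeR quasi-likelihood test, adjusted p = 0.111). Ciclev10003082m.g stood at 4.24, 3.41, 4.72 and 5.73 CPM in PL4x WD roots, against 0.05, 0.0442 and 1.09 CPM in PL2x WD roots (log2 3.58 ± 0.88, SE, edgeR adjusted p = 0.111). For both genes PL2x WD 3 had the highest level of the diploid trees, and it was still below every tetraploid tree. Without 1 library the log2 fold change ranged from 3.89 to 8.05 for Ciclev10013298m.g and from 3.01 to 6.40 for Ciclev10003082m.g, the highest values being those without PL2x WD 3. For Ciclev10013298m.g the diploid libraries then left were at 0, so that fitted value depends on the prior count. Ciclev10016686m.g, the gene lower on the tetraploid elsewhere, stood at 1.77, 2.1, 2.0 and 4.2 CPM in PL4x WD roots, against 4.8, 4.11 and 5.25 CPM in PL2x WD roots. One PL4x WD tree lay inside the range of the PL2x WD trees (log2 -0.91 ± 0.36, SE, edgeR adjusted p = 0.352).

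Across all 20452 genes tested, 1 gene rose (0.00489% of the genes) and 2 fell (0.00978%) in PL4x WD against PL2x WD roots at an adjusted p under 0.05, 3 in all (0.0147%). The same test called 1 gene between irrigated PL roots (0.00489%), 4 between droughted ML roots (0.0196%) and 438 between irrigated ML roots (2.14%). The 3 are described below, and the values of each separated the groups.

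Ciclev10020909m.g was the gene that rose. It stood at 5.44, 3.65, 0.722 and 2.04 CPM in PL4x WD roots, against 0, 0.0884 and 0.0603 CPM in PL2x WD roots. The lowest tetraploid tree was still far above the highest diploid one. The log2 fold change was 5.70 ± 0.91 (SE, edgeR adjusted p = 0.0215). It rests on 252 reads in the 4 PL4x WD libraries and 3 reads in the 3 PL2x WD libraries, a ratio of 60.1 with an exact 95% interval of 20.3 to 293.5 that covers counting error only. The rootstocks stood apart by a like amount where the trees were irrigated, at 2.09 to 4.06 CPM in PL4x Ctrl and 0.0486 to 0.228 CPM in PL2x Ctrl (log2 4.52 ± 0.81, SE), and under the other scion in drought, at 1.87 to 5.22 CPM in ML4x WD and 0 to 0.115 CPM in ML2x WD (log2 5.77 ± 0.95, SE). The irrigated PL difference did not pass the test (edgeR adjusted p = 0.0817) and the droughted ML one did (edgeR adjusted p = 0.0258). It was among the 5 genes that separated the rootstocks in the other 20 libraries, and the difference between drought and irrigation in its rootstock effect was 1.18 ± 1.19 (log2, SE, edgeR adjusted p = 1.00). Lack of water itself left it without a call, at log2 -0.11 ± 0.61 in PL4x and -1.29 ± 1.05 in PL2x roots (SE). In leaves, which are scion tissue, it stood at 0.15 to 0.302 CPM in PL4x WD and 0.109 to 0.409 CPM in PL2x WD, ranges that overlap.

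Ciclev10017647m.g fell, and it is among the genes that drought lowered in both ML grafts. It stood at 0.515, 0.135, 0.167 and 0.0568 CPM in PL4x WD roots, against 2.95, 1.41 and 9.11 CPM in PL2x WD roots (log2 -4.36 ± 0.68, SE, edgeR adjusted p = 0.0215). Irrigated trees of both rootstocks held much more, 13 to 17.5 CPM in PL4x Ctrl and 14.8 to 16.3 CPM in PL2x Ctrl. Drought changed it by log2 -6.09 ± 0.70 in PL4x (SE, edgeR adjusted p = 5.01e-05), and the PL2x value of -1.77 ± 0.61 missed the threshold (edgeR adjusted p = 0.105). Under Mexican lime the droughted roots of both rootstocks were near 0, with 0 to 0.279 CPM in ML4x WD and 0 to 0.519 CPM in ML2x WD. The 3 PL2x WD trees thus held more than every other droughted root library. The test of the difference between the drought and the irrigated rootstock effect gave log2 -4.32 ± 0.90 (SE), the smallest unadjusted p of that test in the negative direction (8.33e-05), and did not pass over all genes (edgeR adjusted p = 1.00).

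Ciclev10027637m.g also fell, at a higher level of expression. It stood at 11.6, 21.9, 13.5 and 12.1 CPM in PL4x WD roots, against 43.9, 43.1 and 70.2 CPM in PL2x WD roots (log2 -1.82 ± 0.30, SE, edgeR adjusted p = 0.0215). PL4x Ctrl roots ranged from 25 to 69.3 CPM and PL2x Ctrl roots from 36 to 50.9 CPM, so the 4 droughted tetraploid trees were below all irrigated PL trees while the 3 droughted diploid trees were not. Drought lowered it in PL4x (log2 -1.63 ± 0.30, SE, edgeR adjusted p = 0.00129), and in PL2x the value was 0.35 ± 0.32 (SE, edgeR adjusted p = 0.527). Under Mexican lime it stood at 21.8 to 29.5 CPM in ML4x WD and 19.5 to 35.9 CPM in ML2x WD, without a rootstock difference beyond the spread (log2 -0.03 ± 0.28, SE, edgeR adjusted p = 0.982). The difference of the rootstock effect between drought and irrigation was log2 -1.98 ± 0.43 (SE, edgeR adjusted p = 1.00), and that between Persian and Mexican lime under drought -1.79 ± 0.41 (SE, edgeR adjusted p = 0.436).

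**Figure D1:**
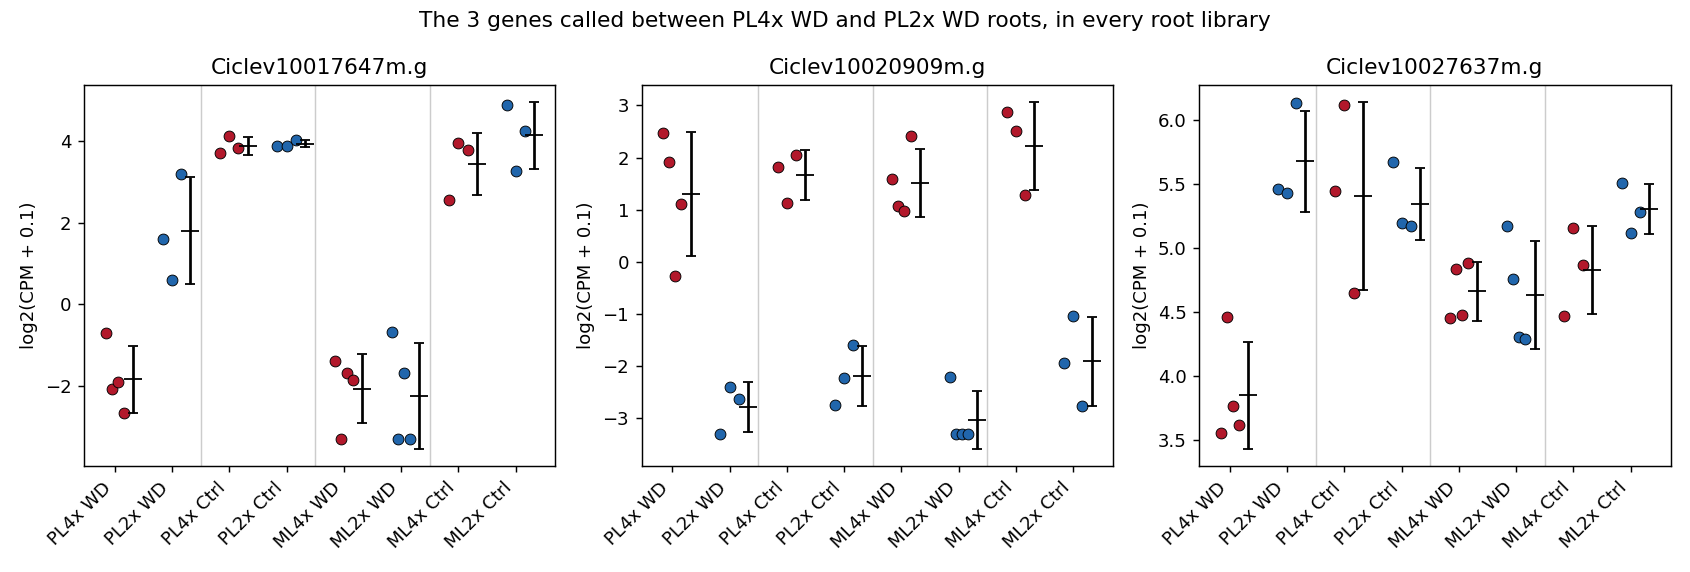
Levels of the 3 called genes in each of 27 root libraries, as log2(CPM + 0.1) on the vertical axis, by group on the horizontal axis (red, tetraploid; blue, diploid rootstock; points are libraries, bars the mean ± SD of the group). Ciclev10020909m.g stands apart by rootstock in all 4 pairs of groups, whereas for the other genes the PL2x WD trees lie above the PL4x WD trees and the irrigated PL groups overlap.

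All 3 were also called by DESeq2 and by limma's voom with quality weights, which called many more genes (111 higher, 0.543%, and 179 lower, 0.875%, by DESeq2, and 1973 higher, 9.65%, and 2186 lower, 10.7%, by voom), whereas a fit of the 7 libraries alone called 0 in edgeR, with 1446 genes at an unadjusted p under 0.05. Without PL4x WD 2 the counts became 160 higher and 419 lower, without PL2x WD 3 they became 0 and 0, and leaving out any 1 of PL2x WD 1, PL2x WD 2, PL4x WD 1, PL4x WD 3 or PL4x WD 4 gave 0 or 1 higher and 0 to 3 lower, with at least 1 of the 3 calls lost each time.

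Below the threshold, differences were more often toward lower levels on the tetraploid. At an unadjusted p under 0.05 there were 2211 genes (10.8%), 876 higher genes (4.28%) and 1335 lower ones (6.53%). Fold changes over 2 counted 759 higher genes (3.71%) and 1676 lower genes (8.19%). Among folds over 2, lower genes outnumbered higher ones at every level of expression, and such folds were most frequent at low levels, where counts are few. Below 1 CPM 273 genes were more than 2-fold higher and 646 more than 2-fold lower of 2590, and above 100 CPM these were 40 and 72 of 2432. Among the 2432 most expressed genes, however, 185 were higher and 126 lower at an unadjusted p under 0.05. The median log2 fold change was -0.26 below 1 CPM and 0.14 above 100 CPM. No gene had at least 10 counts in each library of one group and at most 1 in each library of the other.

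In 535 genes all 4 PL4x WD trees were above all 3 PL2x WD trees (2.62%), and in 996 all were below (4.87%), 1531 in all (7.49%). Of these, 457 and 682 belong to none of the rootstock or drought lists described below. Those lists hold 0.46%, 1.31%, 4.37% and 5.8% of all genes tested, so most genes of any kind lie outside them. Over the 35 possible splits of 4 and 3 libraries, unrelated labels give a share of 0.0286 in each direction. The share above is no larger than that, and the share below is. Genes vary together across the libraries, so the share in any single split can lie far from 0.0286. Whether either share differs from it was not tested. Pairs of groups with other numbers of libraries have other such shares. Many of the 535 and 996 genes differed in the same sense where no library is shared. Of the 996 genes, 425 were also without overlap and lower on the tetraploid in irrigated roots under Mexican lime (42.7%, against 12.3% of all genes), and 196 in irrigated roots under Persian lime (19.7%, against 6.62%). In droughted roots under Mexican lime there were 32 (3.21%, against 1.67%). Of the 535 genes the corresponding numbers were 147 (27.5%, against 11.7% of all genes), 60 (11.2%, against 5.36%) and 53 (9.91%, against 2.7%). In all 4 pairs of groups at once, 5 genes were above and 2 below.

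Genes set apart by rootstock under Mexican lime kept their side in droughted Persian lime roots. The mean of the irrigated and droughted ML rootstock differences called 94 genes higher (0.46%) and 267 lower (1.31%) on the tetraploid, from libraries other than the 7 compared. The ML libraries do share the fit and its estimate of spread with them, so the p-values of the list members are not fully independent of the choice of the list. The smallest of these libraries, ML2x WD 4, held 1118900 counts. Of the 267 genes, 256 had a negative log2 fold change in PL4x WD against PL2x WD (95.9%, against 49.4% of all genes tested) and the median was -1.22, against 0.01 for all genes. None of them passed the test over all genes, 187 had an unadjusted p under 0.05 and were lower (70%, against 6.53%), and in 190 the groups did not overlap with the tetraploid below (71.2%, against 4.87%). Of the 94 genes, 90 had a positive log2 fold change (95.7%, against 50.6%), the median was 0.55, and 1 passed the test, Ciclev10020909m.g. DESeq2 called 72 of the 267 genes lower (0.875% of all genes were) and 20 of the 94 genes higher (0.543% of all genes), with none in the opposite direction. Voom called 135 of the 267 genes lower (10.7% of all genes) and 2 higher, and 31 of the 94 genes higher (9.65% of all genes) and 0 lower.

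By library, the 267 genes separated the PL rootstocks in drought. Relative to the mean of the ML control roots, their median log2 level was -1.22, -0.65, -0.35 and -0.73 in the PL4x WD trees, against 0.39, 0.47 and 0.69 in the PL2x WD trees. The irrigated trees were likewise apart, at -0.80, -0.78 and -0.56 in PL4x Ctrl and -0.34, 0.75 and 0.46 in PL2x Ctrl. In droughted roots under Mexican lime the ranges of the 267 genes overlapped. They were -1.15 to -0.12 in ML4x WD and -0.69 to 0.57 in ML2x WD. The 94 genes stood at 0.10, 0.29, -0.07 and 0.03 in PL4x WD, against -0.76, -0.57 and -0.37 in PL2x WD. All of these list values are descriptions.

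**Figure D2:**
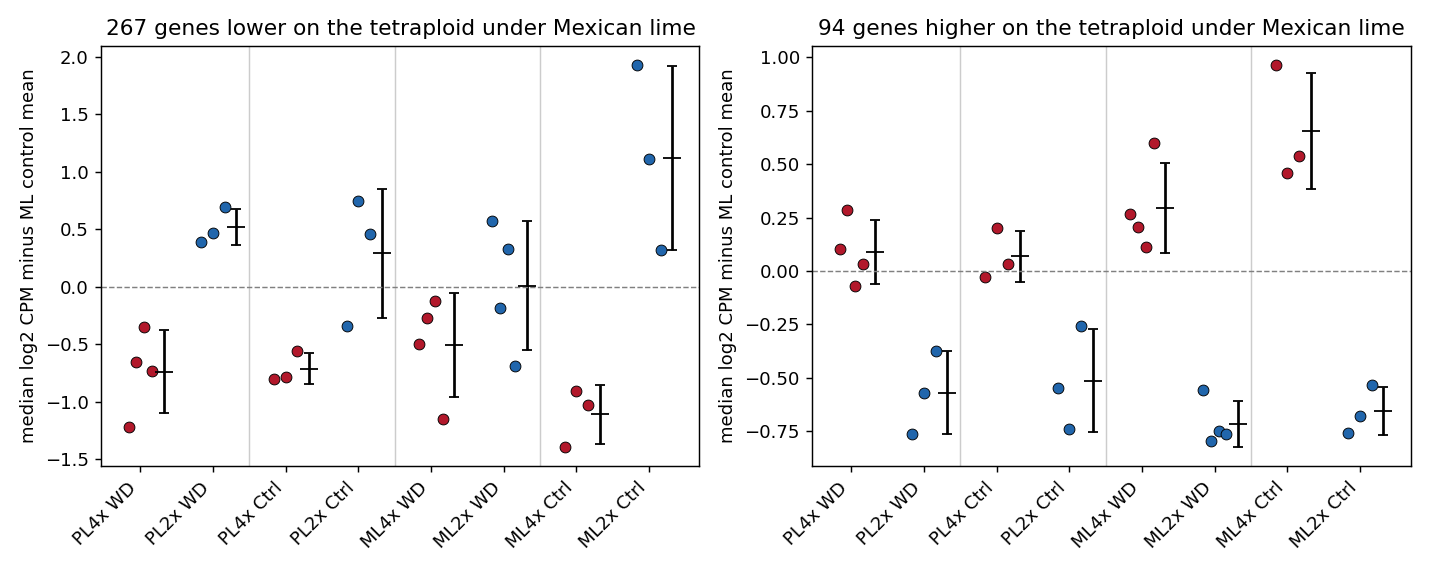
Median log2 CPM of each library minus the mean of the 6 ML control libraries (vertical axis), over 267 genes lower (left) and 94 genes higher (right) on the tetraploid under Mexican lime, by group (points are libraries, red tetraploid and blue diploid; bars are mean ± SD). The ML groups chose the genes, so the PL groups are those to read: the PL4x WD trees lie between -1.22 and -0.35 on the left and the PL2x WD trees between 0.39 and 0.69.

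The rootstock difference of these genes was of like size with and without water. The 267 genes had a median log2 difference of -1.22 between droughted and of -1.09 between irrigated PL roots, and the 94 genes 0.55 and 0.60. Drought changed some members of both lists, in both directions except for the 267 genes in PL2x, where 0 fell. Whether the numbers below differ from the shares of all genes was not tested. In PL4x 25 of the 267 genes rose and 5 fell, and 11 of the 94 genes rose and 10 fell, where 8.9% of all genes rose and 9.64% fell. In PL2x 11 of the 267 genes rose and 0 fell, and 4 of the 94 genes rose and 3 fell, where 2.31% of all genes rose and 1.45% fell. Across all 20452 genes, which are not independent of each other, the PL rootstock difference in drought correlated with that in irrigated roots at a Pearson r of 0.326 (Spearman 0.314). With the rootstock difference under Mexican lime the Pearson r was 0.48 in irrigated roots (Spearman 0.419) and -0.09 in droughted roots (Spearman -0.06). These pairs share no library.

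**Figure D3:**
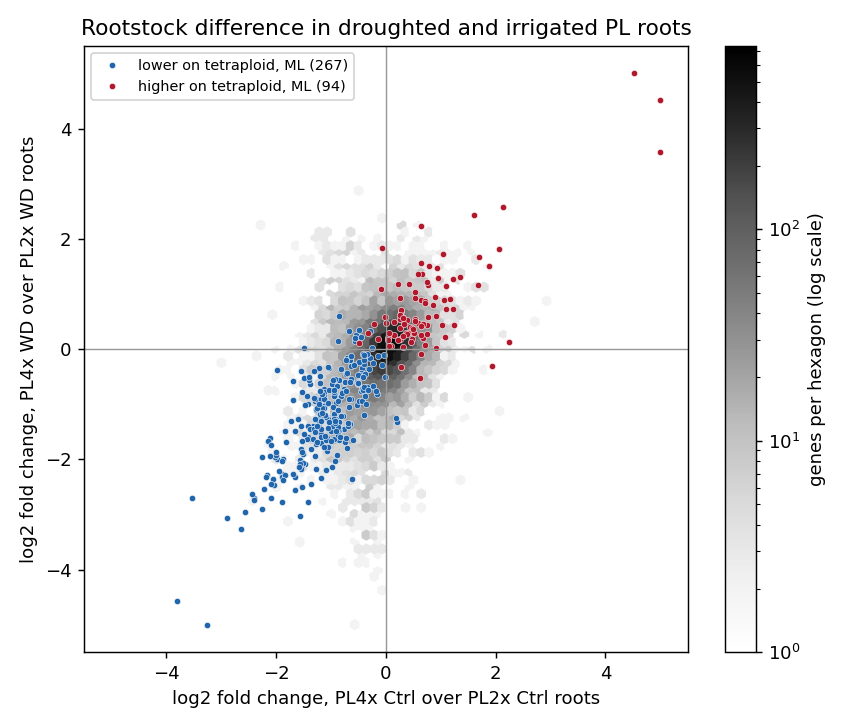
Log2 fold change of the tetraploid over the diploid rootstock in PL WD roots (vertical axis) against the same in PL Ctrl roots (horizontal axis) for 20452 genes, with shading for the number of genes per hexagon and 16 genes beyond 5 drawn at the edge. Blue points are the 267 genes lower and red points the 94 genes higher on the tetraploid under Mexican lime, and most blue points lie below 0 and most red points above 0 on both axes.

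The 7 trees also differed in the levels of drought-responsive genes. These were read on genes called in the same direction by drought in both ML grafts, 893 induced (4.37%) and 1186 repressed (5.8%), again chosen on ML libraries in the same fit. Of the 893 induced genes, 751 were higher in PL4x WD than in PL2x WD (84.1%, against 50.6% of all genes), with a median log2 fold change of 0.30. Of the 1186 repressed genes, 980 were lower (82.6%, against 49.4%), with a median of -0.57. Of the induced genes 0 and of the repressed genes 1 passed the test, Ciclev10017647m.g. DESeq2 called 18 induced genes higher (0.543% of all genes were) and 0 lower. It called 37 repressed genes lower (0.875% of all genes were) and 1 higher. Voom called 358 induced genes higher (9.65% of all genes were) and 7 lower, and 261 repressed genes lower (10.7% of all genes) and 3 higher. Few of them separated the groups: in 32 induced genes the tetraploid trees were all above (3.58%, against 2.62%), and in 117 repressed genes all below (9.87%, against 4.87%).

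Drought moved these genes in both PL grafts. By edgeR 3792 genes responded to drought in PL4x (18.5%) and 769 in PL2x (3.76%), with 4 droughted trees in PL4x and 3 in PL2x. In PL4x 714 of the 893 induced genes rose (8.9% of all genes did) and 908 of the 1186 repressed genes fell (9.64% of all genes), with median log2 changes of 1.21 and -1.92. In PL2x 318 rose (2.31% of all genes) and 187 fell (1.45%), with medians of 0.98 and -1.42. The rootstock difference in irrigated roots had medians of 0.11 for induced and -0.11 for repressed genes. The difference of the rootstock effect between drought and irrigation had medians of 0.17 and -0.52, and 0 members of either list passed that test in edgeR, with 53 induced genes above 0 (5.94%, against 1.66% of all genes) and 3 below, and 92 repressed genes below 0 (7.76%, against 1.53%) and 2 above, at an unadjusted p under 0.05.

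The lists did not separate the trees by rootstock. Relative to the ML control roots, the repressed genes had a median log2 level of -2.04, -1.58, -2.50 and -2.28 in the PL4x WD trees, against -2.08, -1.46 and -0.90 in the PL2x WD trees. For the induced genes the medians were 1.27, 0.88, 1.59 and 1.51 in PL4x WD, against 1.35, 0.90 and 0.66 in PL2x WD. PL2x WD 3 stood nearest to the irrigated trees on both lists. Without it the median rootstock difference was 0.18 for the induced and -0.23 for the repressed genes, and without PL2x WD 1 the induced median was 0.48.

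**Figure D4:**
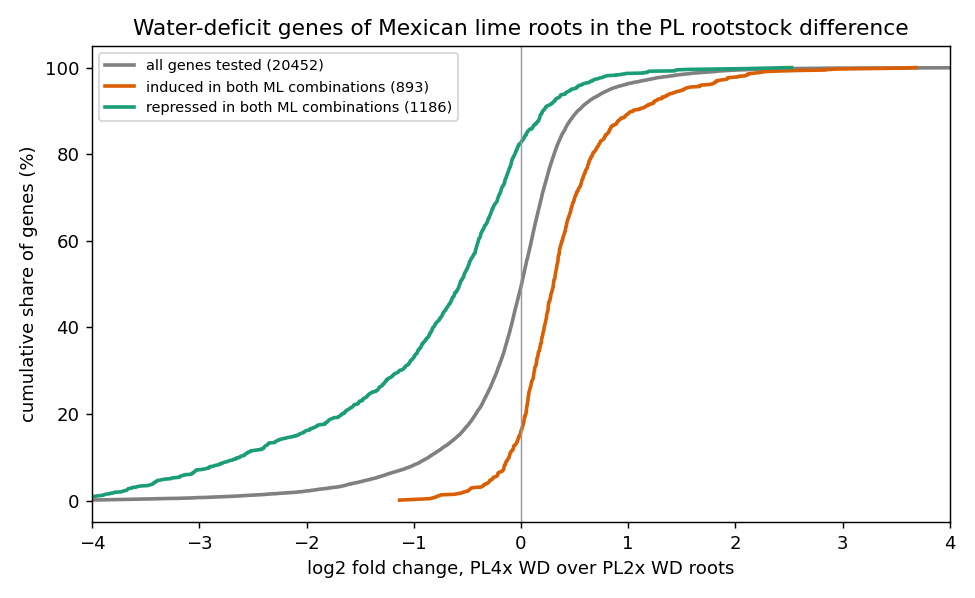
Cumulative share of genes (vertical axis, %) by log2 fold change of PL4x WD over PL2x WD roots (horizontal axis, 37 genes beyond 4 not shown), for all genes and for genes induced or repressed by drought in both ML grafts. The curve of the 1186 repressed genes is shifted to the left and that of the 893 induced genes to the right of all genes.

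Examples with the largest mean responses under Mexican lime show how the single trees differed. Ciclev10009815m.g, an induced gene, stood at 9.73, 0.98, 7.78 and 18.4 CPM in PL4x WD, against 1.5, 1.19 and 1.15 CPM in PL2x WD. PL4x WD 2 was below every diploid tree and the other 3 tetraploid trees above (log2 2.84 ± 0.91, SE, edgeR adjusted p = 0.224). Ciclev10017668m.g, also induced, stood at 29.2, 12.7, 34.5 and 71.7 CPM in PL4x WD, against 23, 13.3 and 6.52 CPM in PL2x WD, and the groups overlapped. Ciclev10029991m.g, a repressed gene at 27.2 to 163.8 CPM in PL4x Ctrl and 93 to 126.5 CPM in PL2x Ctrl, stood at 0, 0.135, 0.5 and 0 CPM in PL4x WD, against 0.2, 0.0884 and 6.21 CPM in PL2x WD. Its log2 fold change of -3.67 ± 1.42 (SE, edgeR adjusted p = 0.332) turned to 0.15 without PL2x WD 3. Ciclev10010511m.g, repressed as well, had 0, 0.879, 0 and 0 CPM in PL4x WD, against 0, 0.707 and 8.57 CPM in PL2x WD.

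A water-deficit score placed each library along the mean difference between droughted and irrigated ML roots, with the mean ML control at 0% and the mean ML droughted library at 100%. The PL4x WD trees scored 101.9%, 50.6%, 117% and 116%, against 104%, 60.2% and 33.4% in the PL2x WD trees. So PL4x WD 2 lay among the diploid trees and PL2x WD 1 among the tetraploid ones. The share of counts in the 1148 root-enriched genes moved with the score, at 5.3%, 7.21%, 5.01% and 5.28% in the PL4x WD trees, against 5.62%, 7.31% and 8.23% in the PL2x WD trees. The 3 trees of lowest score had the highest shares, and the part of this in the score and in the drought lists was not tested. The means were 96.3 ± 31.3% in PL4x WD (SD, n = 4) and 65.8 ± 35.6% in PL2x WD (SD, n = 3), a difference of 30.5 points that was within the spread of the trees (two-sided exact permutation p = 0.257 over 35 splits, of which 0.0286 is the smallest possible). Without PL2x WD 3 the difference was 14.3 points and without PL2x WD 1 it was 49.6. The irrigated trees scored 1.77% to 26.7% in PL4x Ctrl and -8.56% to 13.9% in PL2x Ctrl.

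**Figure D5:**
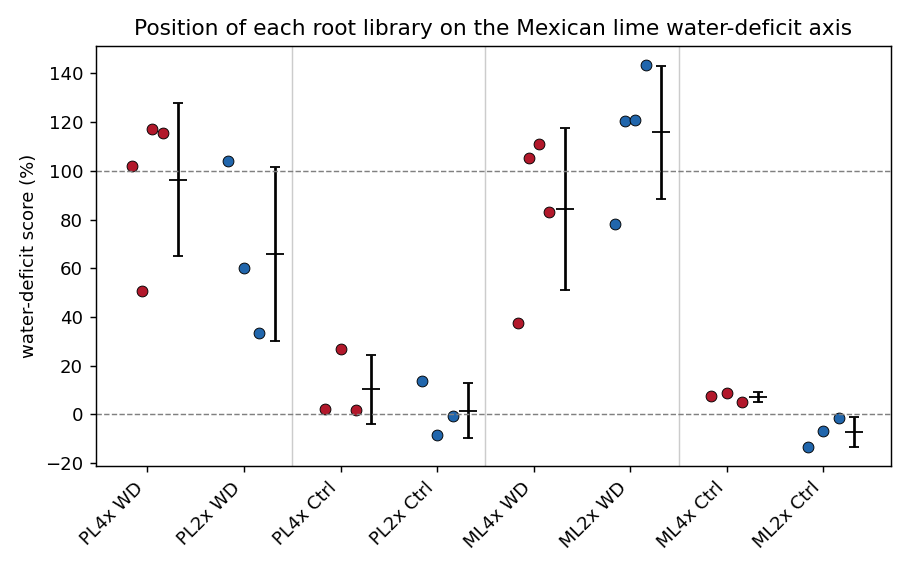
Water-deficit score of each root library (vertical axis, %; dashed lines at 0 and 100) by group (points are libraries, red tetraploid and blue diploid; bars are mean ± SD). The 4 PL4x WD trees range from 50.6% to 117% and the 3 PL2x WD trees from 33.4% to 104%, and the ranges overlap.

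Whole libraries were often most like one from the other rootstock with a near score. Over the 21 pairs of the 7 libraries, the root mean square difference of log2 CPM correlated with the gap in score at r = 0.945, a description in which each library enters 6 pairs and the score comes from the same levels. The closest library of PL2x WD 1 was PL4x WD 3, that of PL4x WD 1 was PL2x WD 1, and PL2x WD 2 and PL4x WD 2 were closest to each other. The correlation of log2 CPM ranged from 0.904 to 0.976 in 9 pairs within a rootstock and from 0.882 to 0.972 in 12 pairs between rootstocks. The pair of genes that fell followed the order of the score in part. PL2x WD 3, at the lowest score (33.4%), had the highest levels, 9.11 CPM of Ciclev10017647m.g and 70.2 CPM of Ciclev10027637m.g. PL4x WD 2, at 50.6%, had 0.135 and 21.9 CPM, whereas PL2x WD 1, at 104%, had 2.95 and 43.9 CPM. The association of these levels with the score was not itself tested. A fit with the score as a covariate was chosen after seeing the data, and the score comes from the same libraries. It gave log2 fold changes of -3.86 for Ciclev10017647m.g and -1.67 for Ciclev10027637m.g (edgeR adjusted p = 0.0454 for each). Across all genes the PL rootstock difference in drought correlated with the mean ML drought response at r = 0.521 and with the mean ML rootstock difference at r = 0.28. For the irrigated PL roots these were 0.17 and 0.424.

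Whether the rootstock difference in droughted PL roots differed from that in irrigated roots or under the other scion was tested gene by gene, and no gene passed in edgeR. For drought against irrigation 653 genes had an unadjusted p under 0.05 (3.19%), and DESeq2 called 1 and voom 80. In the positive direction Ciclev10022789m.g had the smallest p. It stood at 13.2, 7.43, 24.7 and 26.7 CPM in PL4x WD, against 7.36, 2.12 and 2.96 CPM in PL2x WD, and at 1.92 to 3.1 CPM in PL4x Ctrl, against 4.32 to 6.96 CPM in PL2x Ctrl. The rootstocks thus ranked in opposite order in dry and watered roots (log2 difference of differences 3.19 ± 0.78, SE, unadjusted p = 0.00047, edgeR adjusted p = 1.00).

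For Persian against Mexican lime under drought 2327 genes had an unadjusted p under 0.05 (11.4%), with 0 called by edgeR, 3 by DESeq2 and 2084 by voom. Without PL4x WD 2 edgeR called 816. Ciclev10006194m.g had the smallest p in the positive direction, at 40.2, 3.18, 21.1 and 31 CPM in PL4x WD, against 15.9, 2.47 and 0.965 CPM in PL2x WD, and at 4.34 to 9.19 CPM in ML4x WD, against 8.93 to 69.6 CPM in ML2x WD (log2 difference of differences 4.73 ± 1.14, SE, edgeR adjusted p = 0.436). Ciclev10010667m.g had it in the negative direction, at 1.14, 1.66, 0.222 and 0.397 CPM in PL4x WD, against 2.5, 13 and 6.09 CPM in PL2x WD, where the groups did not overlap, and at 1.16 to 5.17 CPM in ML4x WD, against 0 to 2.07 CPM in ML2x WD (log2 -4.21 ± 0.89, SE, edgeR adjusted p = 0.436).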

How the data were processed

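The authors deposited raw read counts per gene, whole numbers for 24533 identifiers, and the submitters' processing notes name Trimmomatic and HTSeq. Per the labels' protocols, 1 µg of RNA went into each library of a kit for stranded mRNA. Aligner, genome build and strand setting: not given in the sources used here, so sense and antisense reads may not be told apart. Reads that differ from the reference used, or that near-identical gene copies share, can be lost or misplaced.

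From the counts, genes were filtered by group (filterByExpr), scaled by TMM and fitted in edgeR 4.0.16 (R 4.3.3) over 27 root libraries in 8 groups, with the robust quasi-likelihood F test. Adjusted p-values (Benjamini-Hochberg) cover all 20452 genes tested, and a gene is called under 0.05. DESeq2 1.42.0 and limma 3.58.1 served as alternatives. The script was tested on simulated counts drawn independently for each gene. They lack the differences between trees of a group that many genes share, so the test does not cover these. Log2 CPM for scores and likeness used a prior count of 2.

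Comparison and lists were chosen with earlier results of these data known. No more than 2 identifiers are named per direction and comparison: the highest and lowest called fold changes with at least 1 CPM, or the smallest p where none was called. For lists they are the largest mean responses, and for genes that separate the rootstocks the largest fold changes. Lists stayed fixed under the alternatives.

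Libraries within the groups were separate: the mean chi-square per gene between 2 libraries of a group was at least 32, where counting noise gives about 1.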

Additional observations from a re-analysis of the deposited data

Results flagged for a closer look

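In groups of 4 libraries, 24 sets of values were examined: the 13 genes named and 5 measures of the library in PL4x WD, and the 3 called genes in ML4x WD and in ML2x WD. In 5 sets 1 library lay far from the other 3. Chance flags about 1 set in 20 where values vary continuously, and this rate does not apply to the 2 sets in which 3 libraries tie at 0, where any read in the remaining library gives a gap of 1. PL4x WD 4 had 4.2 CPM of Ciclev10016686m.g, against 1.77 to 2.1 CPM in the other PL4x WD roots (gap 0.868 of the range). PL4x WD 2 had 0.879 CPM of Ciclev10010511m.g, against 0 in the other 3 (gap 1 of the range). The share of root-enriched genes was 7.21% in PL4x WD 2, against 5.01% to 5.3% in the other 3 (gap 0.868). The share of leaf-enriched genes was 0.271% in PL4x WD 3, against 0.143% to 0.157% in the other 3 (gap 0.885). Outside Persian lime, 1 ML2x WD library had 0.115 CPM of Ciclev10020909m.g, against 0 in the other 3 (gap 1).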

How the results depend on the processing

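The 1 higher and 2 lower genes stayed called under RLE or upper-quartile scaling, without a filter, with at least 1 CPM in 3 libraries and without ML2x WD 4. Other settings moved the counts. A fit of the 7 libraries alone gave 0 higher and 0 lower, and one of the PL roots alone 0 and 1, a gene not among the 3. DESeq2 gave 111 and 179, and voom 1973 and 2186. With the water-deficit score as a covariate, an alternative chosen after seeing the data and computed from the same libraries, 1 gene was higher and 5 lower, the 3 genes included. Leaving out 1 library each gave 0 to 160 higher and 0 to 419 lower. The difference between drought and irrigation called 1 gene in DESeq2 and 80 in voom, and 0 in each fit without 1 library. The difference between scions called 3 and 2084, and 0 to 816 without 1 library. The cause of these shifts was not tested.

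With the replicate number as a block 0 genes were higher and 0 lower, with an adjusted p of 0.0872 for each of the 3 genes. The numbers name different trees, and the deviations of same-numbered PL4x WD and PL2x WD libraries correlated at 0.16, 0.371 and -0.403, so they are not taken as pairs. Of the 3 PL4x WD libraries, 1 correlated best with its own number.

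The median of the 94 genes higher on the tetraploid under Mexican lime ranged from 0.51 to 0.74 without 1 library, that of the 267 lower genes from -1.33 to -1.10, that of the induced genes from 0.18 to 0.48 and that of the repressed genes from -0.83 to -0.23, the smallest sizes of the last pair without PL2x WD 3. The score difference ranged from 14.3 to 49.6 points, with exact permutation p from 0.2 to 0.733. The log2 fold change of Ciclev10029991m.g ranged from -4.98 to 0.15 without 1 library, reversed only without PL2x WD 3. Where a group held few reads of a gene, counting error limits its fold.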
